A study of Mus musculus with 7 samples.

Results

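Imprinted genes are transcribed mainly from the copy inherited from one parent. A fixed panel of 37 of them, each expressed in the mouse embryo or placenta, was looked up by gene symbol among the 25461 genes of an RNA-seq table of E11.5 whole embryos, and all 37 were found. By the textbook record, 14 are classed as maternally expressed and 22 as paternally expressed, and the allele of 1, Gnas, depends on the promoter. The class is 1 label per gene and does not say in which tissues the imprint holds. The embryos were 3 KO and 4 WT embryos of the B6C3F1 background, collected on embryonic day 11.5 with the tail removed for genotyping. KO embryos lack the SLMAP3 isoform of SLMAP, a tail-anchored membrane protein, through a germline deletion of exon 3 that was first made with CMV-cre and then bred free of cre, and the shorter SLMAP1 and SLMAP2 isoforms are kept. WT embryos carry 2 intact alleles, and both genotypes come from crosses of heterozygous parents. Levels are FPKM, fragments scaled to transcript length and sequencing depth, summed over both alleles, so the parental origin of the RNA was not measured and loss of imprinting cannot be read from these values.

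The monoallelic state is set in the germ line by DNA methylation at imprinting control regions, and it is held through early development by DNA methyltransferases and by the zinc finger protein ZFP57 with its partner TRIM28. Imprinted genes lie in clusters in which a noncoding RNA is often transcribed from the opposite parental copy to its protein-coding neighbours. Many act on fetal growth: the paternally expressed Igf2 encodes a growth factor, whereas the maternally expressed Igf2r, Cdkn1c and Grb10 encode proteins that clear that factor, restrain the cell cycle or dampen insulin signalling.

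The embryos were not uniform. Transcripts of the fetal liver list, led by Afp, summed to 489.9, 31.3 and 576 FPKM in KO embryos 1 to 3 and 881, 38.8, 686 and 45.1 FPKM in WT embryos 1 to 4. KO embryo 2, WT embryo 2 and WT embryo 4 were therefore poor in liver transcripts, so the main counts and the differences of several members are also given without those 3 embryos. Xist was near 0 and Y-linked transcripts were present in KO embryo 3 and WT embryo 3, with the reverse in the other 5. Slmap, whose gene value sums all isoforms, stood at 19.6, 16.01 and 16.6 FPKM in KO embryos 1 to 3. In WT embryos 1 to 4 it stood at 31.2, 23.9, 29.1 and 22.8 FPKM, and the 2 genotypes did not overlap. The log2 difference of Slmap, KO minus WT, was -0.59 ± 0.13 (SE) with a limma adjusted p of 0.278. That adjusted p ranged from 0.0905 to 0.552 over 19 alternatives to the processing, so Slmap did not pass after adjustment in any of them. The libraries held an estimated 5.44e+07 to 8.2e+07 counts on genes, so counting error is small for all but the least abundant members, and the embryo-to-embryo spread sets the precision.

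The panel spanned more than 4 orders of magnitude. H19, a maternally expressed noncoding RNA, ranked 43 among all 25461 genes, and 10 members were among the top 1000. Means over the 7 embryos reached at least 100 FPKM for 12 members, lay between 5 and 100 FPKM for 19 and between 1 and 5 FPKM for 2. The last 4 had means below 1 FPKM and were left out of the test: Kcnq1ot1, Slc22a18, Ascl2 and Dio3. Of these, Ascl2 has its best known role in the placenta, and 6 of the 8 trophoblast markers in the table were also below 1 FPKM in every embryo. Trophoblast transcripts summed to only 3.96, 3.50 and 6.52 FPKM in KO embryos 1 to 3 and 4.47, 4.66, 4.10 and 4.17 FPKM in WT embryos 1 to 4, so trophoblast transcripts were scarce. Yolk sac endoderm shares Afp, Apoa1, Apob and Ttr with the liver list and was not assessed apart from it.

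**Figure D1:**
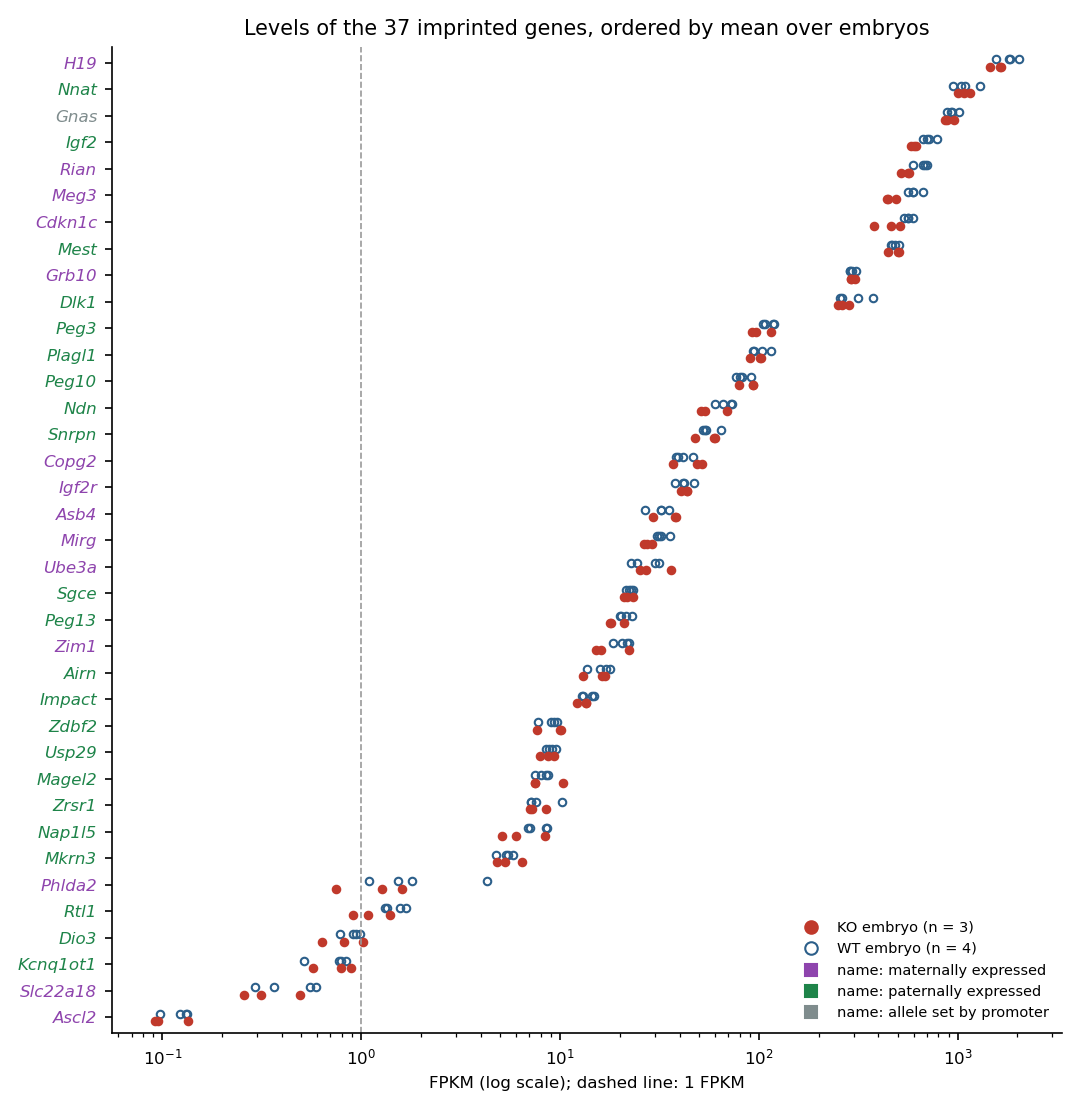
FPKM of each of the 37 imprinted genes (horizontal axis, log scale) in 3 KO embryos (filled) and 4 WT embryos (open), with genes ordered by their mean over embryos and names coloured by the allele known to be expressed. H19 is highest with values between 1453 and 2032 FPKM, 4 genes have means below the dashed line at 1 FPKM, and Meg3, Rian, Igf2 and Cdkn1c show KO points to the left of all WT points.

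The first question was whether the level of imprinted genes differed between KO and WT embryos. No imprinted gene passed an adjusted p of 0.05 in limma over the 16095 genes tested, where 6 genes did (0.0373%). Slmap, the gene targeted by the deletion, did not pass either, so a gene that misses this threshold may still differ. At an unadjusted p under 0.05, 5 of the 33 members tested differed, and all 5 were lower in KO: Meg3, Igf2, Rian, Mirg and Cdkn1c. The background share of genes called lower at that level was 6.19%, against 15.2% of the members (5 of 33), and none of the members was called higher, where the background was 5.27%. Meg3, Rian and Mirg lie one after another on the same strand of the Dlk1-Dio3 domain, so the 5 genes are not 5 separate loci. The same 5 genes were those whose KO embryos all lay below every WT embryo, a state shared by 5.98% of all genes tested. No member had all KO embryos above all WT embryos, which held for 5.61% of all genes. By sign alone 23 members were lower and 10 higher in KO, beside 7541 lower and 8554 higher of all 16095 genes tested. The median log2 difference of the members was -0.06 beside 0.01 over all genes tested. That median was -0.0995 without KO embryo 1, -0.0398 without WT embryo 3, -0.105 without WT embryo 4 and -0.11 without the 3 liver-poor embryos. The 12 maternally expressed genes tested had a median of -0.21 and included 4 of the 5 genes named, 3 of them in the Dlk1-Dio3 domain. The 20 paternally expressed genes had a median of -0.06 and included 1. The maternal median was -0.13 without KO embryo 2. The paternal median was -0.034 without WT embryo 3, -0.099 without WT embryo 4, -0.095 without KO embryo 1 and -0.10 without the 3 liver-poor embryos. The contrast between the 2 classes was not tested. Without the 3 liver-poor embryos 11 of 33 members had an unadjusted p under 0.05, beside 10.78% of all genes in that fit, and 10 were lower, beside 6.18%. Beyond the 5 genes named these were Dlk1, Rtl1, Phlda2, Ndn and Nap1l5, and the one that was higher was Peg10. The remaining 2 KO and 2 WT embryos did not overlap for 16 members, near the 46.5% of all genes for which this held. With KO embryo 2 alone left out, 10 members had an unadjusted p under 0.05, beside 16.4% of all genes, and with KO embryo 1 left out 8 did, beside 8.75%. The 5 genes above were among the members called each time.

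As a whole the panel took a smaller share of the transcriptome in KO embryos. Its 37 genes summed to 7397, 7389.6 and 7403 FPKM in KO embryos 1 to 3 and 8002, 8200.4, 8730.1 and 7946 FPKM in WT embryos 1 to 4. As a share of all FPKM that was 0.961, 0.959 and 0.859% in KO embryos 1 to 3 and 1.04, 1.02, 1.07 and 1.01% in WT embryos 1 to 4, and the groups did not overlap. Maternally expressed genes accounted for most of the gap, at 3541 ± 74.1 FPKM in KO (SD, n = 3) against 4139 ± 289.9 FPKM in WT (SD, n = 4), whereas paternally expressed genes summed to 2952 ± 32.6 FPKM in KO (SD, n = 3) against 3139 ± 125 FPKM in WT (SD, n = 4). These sums are led by H19 and Nnat, so they follow a few abundant genes. In whole embryos, fewer cells of a type that expresses these genes and less RNA per cell cannot be told apart.

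**Figure D2:**
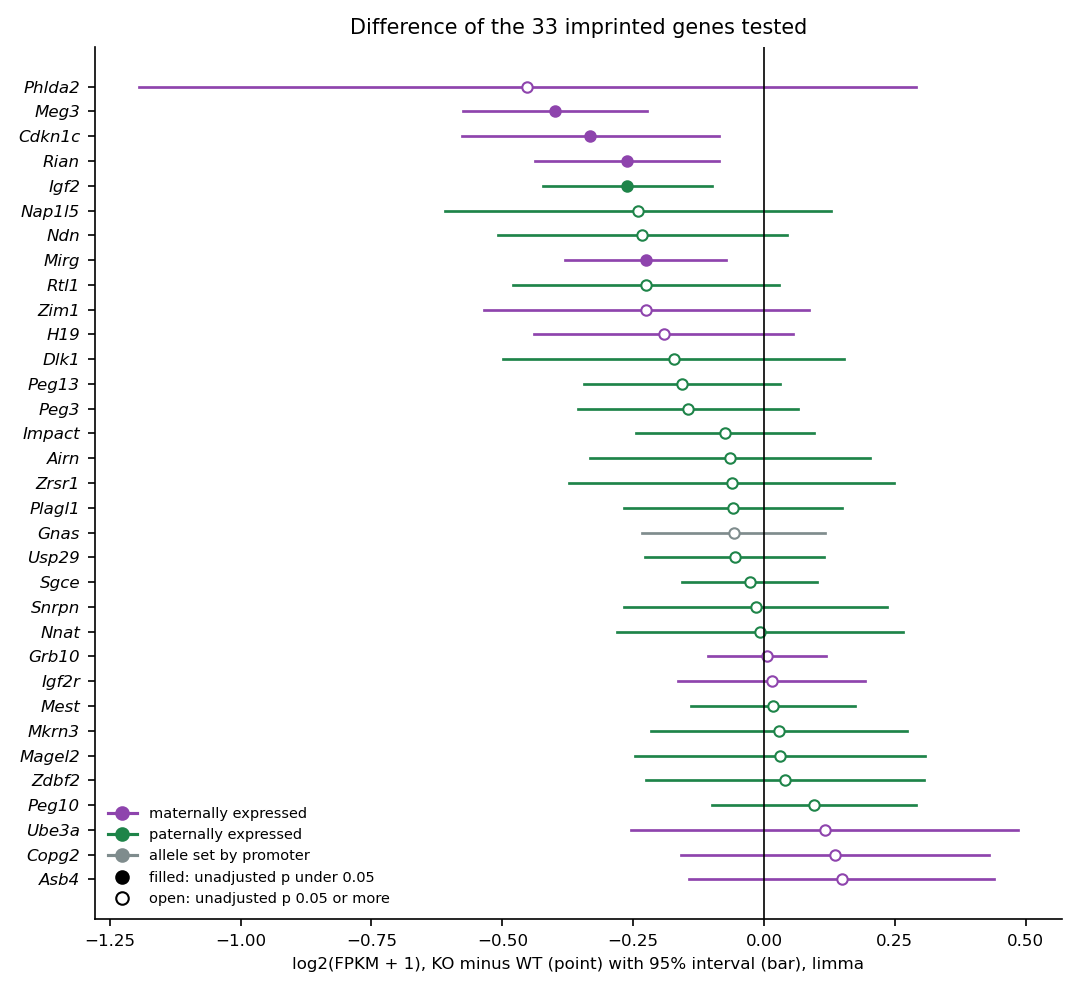
Difference in log2(FPKM + 1) between KO and WT embryos (horizontal axis, KO minus WT) for the 33 imprinted genes tested, with 95% intervals from limma and colours for the allele expressed. Filled points mark the 5 genes with unadjusted p under 0.05, all left of 0, and Phlda2 has the widest interval, from -1.19 to 0.29.

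The Dlk1-Dio3 domain on chromosome 12 held 3 of the 5 genes, the maternally expressed noncoding RNAs Meg3, Rian and Mirg, which lie one after another on the plus strand and carry small RNAs in their introns and exons. Meg3 (ENSMUSG00000021268, chr12:109541001-109571726, plus strand, GRCm38) stood at 441, 489.6 and 446 FPKM in KO embryos 1 to 3 and 596, 595, 667 and 565 FPKM in WT embryos 1 to 4. The highest KO embryo was thus below the lowest WT embryo, and the KO mean was 75.7% of the WT mean, at 459 ± 26.8 FPKM in KO (SD, n = 3) against 606 ± 43.2 FPKM in WT (SD, n = 4). On the log2 scale the difference was -0.40 ± 0.07 (SE), the smallest p of the panel, with a limma Benjamini-Hochberg adjusted p of 0.274. A small share of Meg3, 4.04% of its 50-base stretches, is shared with the annotated transcript Gm27000, which was listed at 0 in KO embryo 3 and WT embryo 4 and at 20.2 to 27.96 FPKM in the other 5. With both genes added the levels were 465, 509.8 and 446 FPKM in KO embryos 1 to 3 and 618, 621, 695 and 565 FPKM in WT embryos 1 to 4, and the groups still did not overlap.

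The promoter of Meg3 is shown because the maternal noncoding RNAs of this domain were low together. In the 300 bases from 250 before to 50 after the RefSeq start of Meg3 (GRCm38.p6, chr12:109540746-109541045, plus strand) capitals mark the only match to TGACGTCA, the palindromic cAMP response element, which begins 57 bases before the start:
Meg3 promoter: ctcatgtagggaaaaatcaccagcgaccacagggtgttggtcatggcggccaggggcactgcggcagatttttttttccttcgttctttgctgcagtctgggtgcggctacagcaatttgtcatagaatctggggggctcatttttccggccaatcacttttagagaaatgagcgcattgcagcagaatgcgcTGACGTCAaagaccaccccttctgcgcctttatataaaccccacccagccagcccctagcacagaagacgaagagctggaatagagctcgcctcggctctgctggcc
These letters, searched on both strands, occur in 1.79% of the 32851 promoter windows of that length in RefSeq. Among the 30 members with a promoter entry they occur in 4, Meg3, Peg3, Usp29 and Zdbf2, which is 4 of 45 windows (8.89%). The windows of Peg3 and Usp29 overlap and share a single match. Of these genes Meg3 alone was among the 5 genes low in KO. The letters TGCCGC, which ZFP57 recognises when methylated and which share no base with the first motif here, occur on either strand in 11.6% of all windows and in 12 of the 45 windows of the members, Meg3 included. The member windows held a median of 14 CpG dinucleotides, beside 7 over all windows, and the Meg3 window held 13.

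Rian (ENSMUSG00000097451, chr12:109603940-109661716, plus strand), the host of a large cluster of C/D box small nucleolar RNAs, was at 565, 572 and 519 FPKM in KO embryos 1 to 3 and 671, 699, 683 and 597 FPKM in WT embryos 1 to 4. All KO embryos lay below the lowest WT embryo, which was WT embryo 4, and the log2 difference was -0.26 ± 0.07 (SE) with a limma adjusted p of 0.318. Mirg (ENSMUSG00000097391, chr12:109729764-109749460, plus strand), the host of a dense microRNA cluster, was an order of magnitude less abundant, at 26.5, 29.1 and 27.4 FPKM in KO embryos 1 to 3 and 32.1, 30.8, 35.7 and 31.6 FPKM in WT embryos 1 to 4. Its groups were also apart, by -0.23 ± 0.07 (SE) on the log2 scale with a limma adjusted p of 0.327. Without the 3 liver-poor embryos the log2 differences of Meg3, Rian and Mirg were -0.51, -0.32 and -0.32.

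For the paternally expressed genes of the same domain the genotypes overlapped over all 7 embryos. Dlk1 (ENSMUSG00000040856, chr12:109452823-109463336, plus strand), a transmembrane ligand of the Notch family that restrains differentiation, stood at 262, 249 and 285 FPKM in KO embryos 1 to 3 and 316, 257, 375 and 262 FPKM in WT embryos 1 to 4, and the groups overlapped. Its log2 difference of -0.17 ± 0.14 (SE) had a limma adjusted p of 0.648, and WT embryo 3 was the highest. The difference was -0.064 without WT embryo 3, -0.24 with Afp as a covariate and -0.33 without the 3 liver-poor embryos. Rtl1, a retrotransposon-derived gene needed in the placenta and the least abundant member tested, was at 1.08, 1.39 and 0.907 FPKM in KO embryos 1 to 3 and 1.56, 1.35, 1.68 and 1.32 FPKM in WT embryos 1 to 4, with a log2 difference of -0.23 ± 0.11 (SE) and a limma adjusted p of 0.478. It was -0.15 without KO embryo 3, -0.31 without KO embryo 2, -0.38 with a pseudocount of 0.1 and -0.40 without the 3 liver-poor embryos. Without those 3 embryos both Dlk1 and Rtl1 had an unadjusted p under 0.05, as Dlk1 also did with the Afp covariate and Rtl1 without KO embryo 2, so the calls did not separate them from Meg3, Rian and Mirg there. Dio3, which encodes the enzyme that inactivates thyroid hormone, was below the limit of the test at 0.63 to 1.02 FPKM. All 5 tested genes of the domain were lower in KO by sign, beside 7541 of all 16095 genes tested. Among 14 other genes tested within 500 kb of the domain the median log2 difference was 0.05, and 1 had an unadjusted p under 0.05, in the direction of a higher level in KO, which is near the 5.27% of all genes called higher.

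Several members host microRNAs, which were not measured in these libraries. RefSeq places 56 mature microRNAs inside 8 members, 26 of them in Mirg, 6 in Rian, 3 in Meg3 and 2 each in H19 and Igf2. Of the 56, 11 lie on the strand opposite to Rtl1, the strand of the maternal transcripts. The sequences below are those of hosts that were lower in KO, or of their imprinted neighbours, read 5′ to 3′ with the seed, bases 2 to 8, in capitals. In Mirg the microRNAs miR-453 and miR-496a-5p share a seed, the only seed shared among the 56:
miR-453 (Mirg): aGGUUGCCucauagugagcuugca
miR-496a-5p (Mirg): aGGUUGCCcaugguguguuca
miR-410-3p (Mirg): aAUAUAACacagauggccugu
miR-370-3p (Rian): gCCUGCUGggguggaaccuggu
miR-770-5p (Meg3): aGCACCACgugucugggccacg
miR-127-3p (opposite Rtl1): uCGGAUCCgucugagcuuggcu
miR-483-3p (Igf2): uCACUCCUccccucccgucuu
miR-675-5p (H19): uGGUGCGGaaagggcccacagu

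Igf2 and H19, neighbours on chromosome 7 with opposite parental expression under a shared control region, were both among the most abundant transcripts. Igf2 (ENSMUSG00000048583, chr7:142650766-142666816, minus strand), the fetal insulin-like growth factor, stood at 618, 601 and 583 FPKM in KO embryos 1 to 3 and 719, 704, 788 and 673 FPKM in WT embryos 1 to 4. The genotypes did not overlap, with means of 601 ± 17.8 FPKM in KO (SD, n = 3) against 721 ± 48.7 FPKM in WT (SD, n = 4). The log2 difference was -0.26 ± 0.07 (SE) with a limma adjusted p of 0.298. The readthrough gene Gm49394 shares 61.2% of the 50-base stretches of Igf2, but it was assigned at most 1.20 FPKM in any embryo, and the sum of both genes kept the groups apart. H19 (ENSMUSG00000000031, chr7:142575529-142578143, minus strand), a noncoding RNA, was at 1655, 1453 and 1637 FPKM in KO embryos 1 to 3 and 1833, 1813, 2032 and 1569 FPKM in WT embryos 1 to 4. WT embryo 4 lay among the KO embryos, so the groups overlapped, and the log2 difference was -0.19 ± 0.11 (SE) with a limma adjusted p of 0.524. Without WT embryo 4 it was -0.26, with Afp as a covariate -0.23 and with quantile normalization -0.22. The unadjusted p was under 0.05 in each. Without the 3 liver-poor embryos the log2 difference of Igf2 was -0.33.

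**Figure D3:**
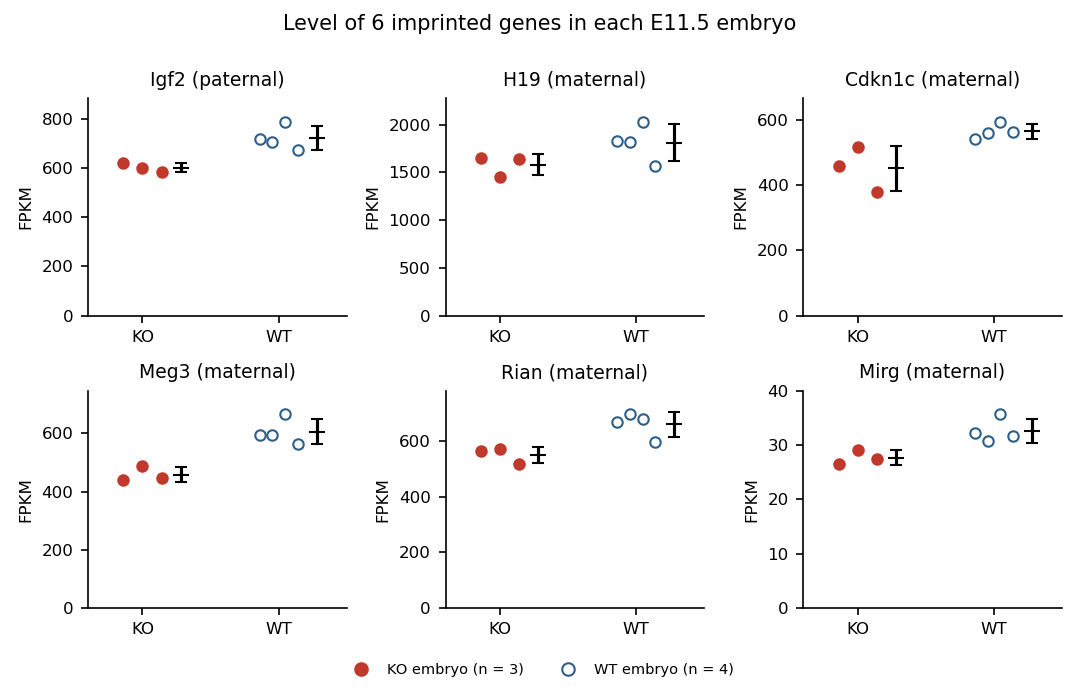
FPKM (vertical axes, each from 0) of Igf2, H19, Cdkn1c, Meg3, Rian and Mirg in each KO (filled) and WT (open) embryo, with the mean and SD beside the points. For Igf2, Cdkn1c, Meg3, Rian and Mirg the highest KO embryo is below the lowest WT embryo, and for H19 one WT embryo, at 1569 FPKM, lies within the KO range of 1453 to 1655 FPKM.

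For the receptor that removes IGF2 from the cell surface, no difference between genotypes was detected. Igf2r (ENSMUSG00000023830, chr17:12682406-12769664, minus strand) was at 43.7, 43.4 and 40.4 FPKM in KO embryos 1 to 3 and 47.1, 41.9, 37.96 and 41.8 FPKM in WT embryos 1 to 4, and the 95% interval of its log2 difference ran from -0.16 to 0.19. Airn (ENSMUSG00000078247, chr17:12741311-12860136, plus strand), the paternally expressed antisense transcript that silences Igf2r on that chromosome, was at 16.7, 16.2 and 13.1 FPKM in KO embryos 1 to 3 and 15.9, 17.8, 16.95 and 13.7 FPKM in WT embryos 1 to 4, with an interval of -0.33 to 0.20. Neither gene had KO embryos outside the WT range on one side.

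Cdkn1c was the one protein-coding gene of maternal expression whose genotypes were apart. It encodes p57KIP2, an inhibitor of cyclin-dependent kinases that lets embryonic cells leave the cycle. Cdkn1c (ENSMUSG00000037664, chr7:143458339-143461050, minus strand) stood at 460.2, 516 and 379.7 FPKM in KO embryos 1 to 3 and 540.4, 559.9, 595 and 565 FPKM in WT embryos 1 to 4. The KO embryos spread more than the WT embryos, from KO embryo 3 at the bottom to KO embryo 2, and the means were 452 ± 68.5 FPKM in KO (SD, n = 3) against 565 ± 22.6 FPKM in WT (SD, n = 4). The log2 difference was -0.33 ± 0.10 (SE) with a limma adjusted p of 0.353, and it was -0.44 without the 3 liver-poor embryos and -0.21 without KO embryo 3. With the number in the embryo labels as a block, which in effect drops WT embryo 3, it was -0.31 and no longer had an unadjusted p under 0.05. Of the exonic bases of Cdkn1c, 30.7% overlap the antisense gene Gm44732, which was assigned 0 to 2.74 FPKM, and the library kit does not mark strand.

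The other genes of the Kcnq1 domain were scarce. Kcnq1ot1 (ENSMUSG00000101609, chr7:143203458-143296549, minus strand), the long noncoding RNA whose transcription silences the domain on the paternal copy, was at 0.794, 0.891 and 0.572 FPKM in KO embryos 1 to 3 and 0.777, 0.835, 0.513 and 0.794 FPKM in WT embryos 1 to 4. Phlda2, a brake on placental growth, was at 1.27, 1.59 and 0.749 FPKM in KO embryos 1 to 3 and 4.28, 1.53, 1.79 and 1.10 FPKM in WT embryos 1 to 4. Its log2 difference, -0.45 ± 0.32 (SE), was the most negative of the panel, but its limma adjusted p was 0.605 and the value was -0.18 without WT embryo 1, the only embryo above 2 FPKM. It was also -0.29 without KO embryo 3, -0.68 with a pseudocount of 0.1 and -0.95 without the 3 liver-poor embryos, where its unadjusted p was under 0.05. Meg3 was more negative than Phlda2 without WT embryo 1, at -0.41, and without KO embryo 3, at -0.38. With embryo quality weights Meg3 was also the more negative, at -0.40 against -0.37. Slc22a18 lay between 0.257 and 0.589 FPKM and Ascl2 between 0.0916 and 0.134 FPKM.

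In the Peg3 domain all 3 members were lower in KO by sign with overlapping groups, beside 7541 of all 16095 genes lower by sign. Peg3 (ENSMUSG00000002265, chr7:6703892-6730431, minus strand), a paternally expressed zinc finger gene, was at 116, 92.4 and 96.9 FPKM in KO embryos 1 to 3 and 118, 119, 108 and 105 FPKM in WT embryos 1 to 4. Usp29, which starts opposite to Peg3 at the same control region, was at 9.30, 8.70 and 7.89 FPKM in KO embryos 1 to 3 and 9.56, 8.85, 8.48 and 9.11 FPKM in WT embryos 1 to 4. Zim1 (15.1 to 22.2 FPKM), a maternally expressed zinc finger gene, had a log2 difference of -0.22 ± 0.13 (SE), and that of Peg3 was -0.15 ± 0.09 (SE). The limma adjusted p was 0.555 for Peg3 and 0.544 for Zim1. Without KO embryo 1 both had an unadjusted p under 0.05, at -0.39 for Zim1 and -0.24 for Peg3, whereas without KO embryo 2 the values were -0.13 and -0.081. With embryo quality weights they were -0.093 and -0.077, and for Peg3 the value was -0.088 without the 3 liver-poor embryos.

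Peg10 and Sgce share a control region on chromosome 6 and are both transcribed from the paternal copy. Peg10 (ENSMUSG00000092035, chr6:4747306-4760517, plus strand), a retrotransposon-derived gene required in the placenta, was at 93.4, 79.4 and 93.03 FPKM in KO embryos 1 to 3 and 82.6, 91.5, 76.6 and 80.6 FPKM in WT embryos 1 to 4. Sgce, which encodes epsilon-sarcoglycan, was at 21.8, 21.1 and 23.3 FPKM in KO embryos 1 to 3 and 21.6, 22.7, 23.4 and 22.2 FPKM in WT embryos 1 to 4, the second smallest relative spread of the members tested after Grb10. The third tested member of the domain, the maternally expressed Asb4, had the most positive log2 difference of the panel, 0.15 ± 0.12 (SE), with a limma adjusted p of 0.658. It was 0.27 without KO embryo 2, with an unadjusted p under 0.05, but 0.085 without KO embryo 1. It was 0.091 without KO embryo 3 and 0.072 without WT embryo 4. Its top rank was lost under several alternatives. Copg2 ranked above Asb4 without KO embryo 1, at 0.28, and with Afp as a covariate, at 0.17 against 0.095. Ube3a did with embryo quality weights (0.25 against 0.20), and Peg10 without the 3 liver-poor embryos (0.23 against 0.17). The embryos of both genotypes overlapped for Peg10, Sgce and Asb4. Without the 3 liver-poor embryos the log2 difference of Peg10 was 0.23, beside 0.09 over all 7.

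Mest (ENSMUSG00000051855, chr6:30723547-30748465, plus strand), a paternally expressed member of the hydrolase family, was at 504, 447 and 507 FPKM in KO embryos 1 to 3 and 460.2, 505, 469 and 483 FPKM in WT embryos 1 to 4. Copg2, a maternally expressed coat protein gene that overlaps the end of Mest on the other strand, was at 37.1, 51.9 and 48.7 FPKM in KO embryos 1 to 3 and 41.3, 46.8, 39.1 and 38.3 FPKM in WT embryos 1 to 4. The 95% interval of the log2 difference was -0.14 to 0.17 for Mest and -0.16 to 0.43 for Copg2. The difference of Copg2, 0.14 over all embryos, was 0.041 without KO embryo 2, 0.086 without KO embryo 3, 0.023 with embryo quality weights, 0.077 without the 3 liver-poor embryos and 0.28 without KO embryo 1, where its unadjusted p was under 0.05. Because reads were not assigned by strand, signal in the overlap of this pair cannot be split between the genes.

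The Prader-Willi and Angelman region on chromosome 7 gave 5 tested members. Snrpn (ENSMUSG00000102252, chr7:59982495-60140219, minus strand), a spliceosomal protein gene, was at 47.7, 60.2 and 59.3 FPKM in KO embryos 1 to 3 and 52.4, 53.6, 64.5 and 54.4 FPKM in WT embryos 1 to 4, and 21.7% of its 50-base stretches are shared with other annotated genes, 21.2% with Gm38393 at the same locus. Gm38393 was at 5.65 to 6.83 FPKM in KO embryos and 4.48 to 4.81 FPKM in WT embryos, without overlap. Its log2 difference was 0.39, with a limma adjusted p of 0.274. Ube3a, the maternally expressed ubiquitin ligase gene, was at 36.3, 25.2 and 27.2 FPKM in KO embryos 1 to 3 and 31.4, 22.8, 30.0 and 24.3 FPKM in WT embryos 1 to 4. Of the exonic bases of Ube3a, 27.3% overlap genes on the opposite strand, among them Snhg14 at 28.3 to 47.0 FPKM. The library kit does not mark strand, so signal in that overlap cannot be split between the genes. KO embryo 1 was the highest for Ube3a and the lowest for Snrpn. Ndn (ENSMUSG00000033585, chr7:62346569-62350262, plus strand), a paternally expressed growth suppressor of the MAGE family, was at 53.9, 69.1 and 50.96 FPKM in KO embryos 1 to 3 and 60.5, 65.7, 72.9 and 72.4 FPKM in WT embryos 1 to 4. Its relative Magel2 was at 7.50, 10.4 and 7.52 FPKM in KO embryos 1 to 3 and 7.51, 8.03, 8.74 and 8.50 FPKM in WT embryos 1 to 4. The log2 difference was -0.23 ± 0.12 (SE) for Ndn, with a limma adjusted p of 0.493, and the 95% interval for Magel2 was -0.25 to 0.31. The difference of Ndn was -0.15 without KO embryo 3. It was -0.36 without KO embryo 2, -0.34 without the 3 liver-poor embryos and -0.25 with embryo quality weights, with an unadjusted p under 0.05 in each. Mkrn3 lay between 4.75 and 6.43 FPKM in all embryos.

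Among the members outside these clusters, the genotypes overlapped for each gene. Grb10, an adaptor that dampens insulin and IGF signalling, lay between 288 and 308 FPKM in all 7 embryos, the smallest spread of the panel, and its 95% interval was -0.11 to 0.12 on the log2 scale. Nnat, a brain-enriched proteolipid gene, lay between 945 and 1295 FPKM, and Gnas, which encodes the stimulatory G protein subunit, between 864 and 1017 FPKM. Plagl1, a zinc finger regulator of growth genes, lay between 89.9 and 115.8 FPKM. Impact (12.2 to 14.8 FPKM), Zdbf2 (7.67 to 10.1 FPKM), Zrsr1 (7.04 to 10.25 FPKM), Nap1l5 (5.12 to 8.64 FPKM) and Peg13 (17.8 to 23.0 FPKM) completed the panel. Nap1l5 and Peg13 had log2 differences of -0.24 ± 0.16 (SE) and -0.16 ± 0.08 (SE), with limma adjusted p of 0.578 and 0.494. That of Nap1l5 was -0.11 without KO embryo 3, -0.41 without KO embryo 2 and -0.40 without the 3 liver-poor embryos, the last 2 with an unadjusted p under 0.05. That of Peg13 was -0.25 without the liver-poor embryos and -0.23 without KO embryo 2, where its unadjusted p was under 0.05. In all, 16 of the 33 tested members lay within 0.1 of 0 on the log2 scale, beside 8493 of all 16095 genes tested.

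Ratios between partner genes ask whether genes of one domain, or Igf2 and its receptor gene Igf2r on another chromosome, kept their proportions. For 12 pairs the log2 ratio of FPKM + 1 was compared by an exact permutation test over 35 splits, whose smallest two-sided p is 0.0286. Mirg against Meg3 had log2 ratios of -4.01, -4.02 and -3.98 in KO embryos 1 to 3 and -4.17, -4.23, -4.18 and -4.12 in WT embryos 1 to 4, higher in KO by 0.17 with no overlap (exact permutation p = 0.0286, adjusted p = 0.114 over the 12 pairs). Meg3 thus had a lower level relative to Mirg in each KO embryo than in any WT embryo. Kcnq1ot1 against Cdkn1c had ratios of -8.01, -8.09 and -7.92 in KO embryos 1 to 3 and -8.25, -8.26, -8.62 and -8.30 in WT embryos 1 to 4, with the KO embryos above all WT embryos by 0.35 on average. With Kcnq1ot1 below 1 FPKM, that ratio rests mainly on Cdkn1c and the value of 1 added. Ndn against Magel2 had ratios of 2.69, 2.62 and 2.61 in KO embryos 1 to 3 and 2.85, 2.89, 2.92 and 2.95 in WT embryos 1 to 4, with the KO embryos below all WT embryos by a mean of 0.26. Both of these pairs also had the smallest p the test allows and an adjusted p of 0.114, so none of the 12 pairs passed after adjustment. The growth factor relative to its receptor, Igf2 against Igf2r, was at 3.79, 3.76 and 3.82 in KO embryos 1 to 3 and 3.90, 4.04, 4.34 and 3.98 in WT embryos 1 to 4. All KO embryos were below all WT embryos for this pair too, yet 1 of the other splits of the 7 embryos gave as large a difference (difference -0.28, exact permutation p = 0.0571, adjusted p = 0.171). H19 against Igf2 differed by 0.07 (exact permutation p = 0.371). That difference was 0.13 without KO embryo 2, 0.021 without KO embryo 3, 0.035 without WT embryo 4 and 0.043 with quantile normalization. The other 7 pairs differed by -0.23 (Meg3 against Dlk1) to 0.14 (Rian against Meg3), with exact permutation p from 0.114 to 0.629.

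**Figure D4:**
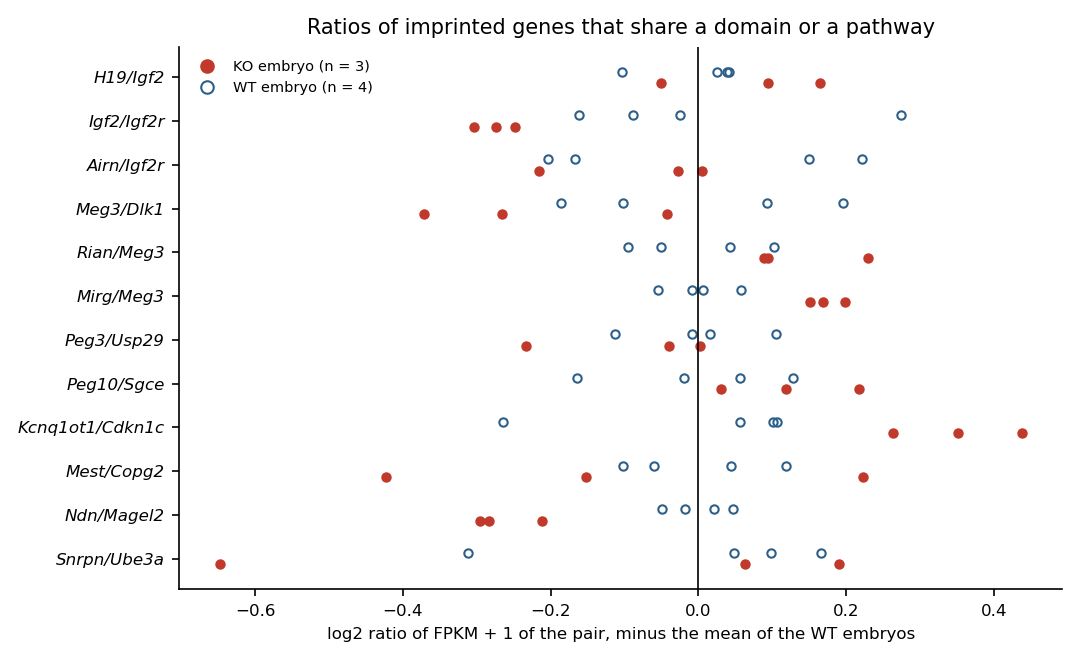
Log2 ratio of FPKM + 1 for 12 pairs of imprinted genes in each KO (filled) and WT (open) embryo, shown after subtracting the mean of the WT embryos (horizontal axis). KO embryos lie entirely to the right of WT embryos for Mirg/Meg3 and Kcnq1ot1/Cdkn1c and entirely to the left for Ndn/Magel2 and Igf2/Igf2r.

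Partner genes were also followed from embryo to embryo. For 6 of 15 pairs at least 1 gene was separated by genotype and for 3 pairs Afp split the embryos into 2 clusters, so no pooled correlation was taken for those. For the other 6 pairs, over 7 embryos, Ndn and Magel2 had the highest Pearson r, 0.69 (exact permutation p = 0.0716, adjusted p = 0.343), with a Spearman rho of 0.79 (exact permutation p = 0.0480, adjusted p = 0.288). Without KO embryos 1 and 3, the embryos farthest from the median of Ndn, r was 0.57. Peg3 and Usp29 had an r of 0.65 (exact permutation p = 0.114, adjusted p = 0.343) and a rho of 0.57 (exact permutation p = 0.200, adjusted p = 0.60), and r was 0.44 without KO embryos 2 and 3. The r of Airn with Igf2r, Peg10 with Sgce, Mest with Copg2 and Snrpn with Ube3a lay between -0.37 and 0.16 with an adjusted p of 0.821 in the exact permutation test for each. Without the 2 embryos farthest from the median of the first gene, r was -0.59 for Airn with Igf2r (WT embryo 4 and KO embryo 3 left out) and 0.55 for Mest with Copg2 (WT embryo 1 and KO embryo 2), so the sign of both turned. It was 0.048 for Peg10 with Sgce (KO embryos 1 and 3) and -0.15 for Snrpn with Ube3a (KO embryo 1 and WT embryo 3). No pair passed after adjustment.

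Further lists place the panel in its pathways. Of 42 other imprinted genes, 36 were in the table and 28 were tested. None passed after adjustment in limma, and 4 (14.3%) had an unadjusted p under 0.05 beside 11.5% of all genes tested, with 3 lower and 1 higher in KO. Gatm, which encodes the first enzyme of creatine synthesis, was at 5.21, 5.56 and 4.53 FPKM in KO embryos 1 to 3 and 7.90, 7.74, 9.50 and 6.21 FPKM in WT embryos 1 to 4, with a log2 difference of -0.53 ± 0.13 (SE). Dcn, a matrix proteoglycan gene, was at 15.4, 17.4 and 12.2 FPKM in KO embryos 1 to 3 and 20.5, 21.3, 26.8 and 18.1 FPKM in WT embryos 1 to 4, with a difference of -0.51 ± 0.16 (SE). Pon2, a paraoxonase gene, was the one that was higher, at 26.4, 24.7 and 32.7 FPKM in KO embryos 1 to 3 and 14.9, 19.1, 22.2 and 22.3 FPKM in WT embryos 1 to 4, with a difference of 0.50 ± 0.16 (SE). The KO and WT embryos did not overlap for any of these 3 genes, and the limma adjusted p was 0.286, 0.347 and 0.354.

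The table held 21 genes for the maintenance of imprints, of which 19 were tested, and none of the 19 was called lower in KO. By sign 16 were higher, beside 8554 of the 16095 genes tested, with a median log2 difference of 0.07. In limma 1 was called higher at an unadjusted p under 0.05, and none passed after adjustment. Those counts compare with 5.27% of all genes called higher and 6.19% called lower. The gene called was Ezh2, the histone methyltransferase of Polycomb complex PRC2, at 211, 199 and 232 FPKM in KO embryos 1 to 3 and 182, 197, 157 and 195 FPKM in WT embryos 1 to 4. Zfp57, which binds methylated imprinting control regions, was at 98.1, 100.4 and 92.6 FPKM in KO embryos 1 to 3 and 98.5, 107, 108 and 109 FPKM in WT embryos 1 to 4, with a log2 difference of -0.12 ± 0.05 (SE). Its partner Trim28 was the most abundant of the list, at 415, 416 and 447 FPKM in KO embryos 1 to 3 and 384, 409, 362 and 407 FPKM in WT embryos 1 to 4. The KO and WT embryos did not overlap for Trim28 (log2 difference 0.13 ± 0.06 (SE), limma adjusted p 0.494), whereas for Zfp57 KO embryo 2 lay inside the WT range. The other 2, Dppa3 and Ctcfl, had means below 1 FPKM and were not tested. Dppa3, which encodes an oocyte factor that protects methylation in the zygote, was at 0.029, 0 and 0.0304 FPKM in KO embryos 1 to 3 and 0.306, 0.212, 0.143 and 0.52 FPKM in WT embryos 1 to 4, so each KO value lay under each WT value at a level close to 0. Ctcfl went the other way, at 0.171 to 0.207 FPKM in KO embryos and 0.0857 to 0.167 FPKM in WT embryos, also without overlap.

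The insulin-like growth factor axis around Igf2 showed differences in both directions that did not pass the adjusted threshold. Of 16 genes tested, 8 had an unadjusted p under 0.05 in limma beside 11.5% of all genes, with 5 higher and 3 lower in KO. Without the 3 liver-poor embryos 5 did, 4 higher and 1 lower, beside 10.78%. Igf2bp2, which encodes an RNA-binding protein that binds Igf2 mRNA, was at 93.4, 78.8 and 97.4 FPKM in KO embryos 1 to 3 and 76.5, 75.02, 76.5 and 75.6 FPKM in WT embryos 1 to 4, with all KO embryos above all WT embryos and a log2 difference of 0.24 ± 0.07 (SE). Irs2, an adaptor of the insulin and IGF1 receptors, was at 11.8, 10.9 and 13.03 FPKM in KO embryos 1 to 3 and 10.3, 9.78, 9.095 and 10.6 FPKM in WT embryos 1 to 4. Igf1, the other ligand, was at 18.997, 15.1 and 18.2 FPKM in KO embryos 1 to 3 and 20.1, 20.4, 22.99 and 20.2 FPKM in WT embryos 1 to 4, with all KO embryos below all WT embryos and a difference of -0.25 ± 0.09 (SE). The limma adjusted p was 0.353, 0.365 and 0.385 for these genes in that order. The shared receptor gene Igf1r had a 95% interval of -0.07 to 0.20.

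Cell type markers also differed between the genotypes, and their part in the imprinted gene values was not tested. Of the 11 skeletal muscle markers tested, 10 were lower in KO at an unadjusted p under 0.05 in limma, beside 6.19% of all genes, with a median log2 difference of -0.97. The 13 markers in the table, led by Mylpf, summed to 146, 145 and 82.1 FPKM in KO embryos 1 to 3 and 269, 261, 354 and 227 FPKM in WT embryos 1 to 4. That list was lowest in KO embryo 3, which was also the lowest embryo for Igf2, Rian and Cdkn1c, but not for Meg3 and Mirg, whose lowest embryo was KO embryo 1. Of 7 neural progenitor markers, 6 were higher in KO at the same level, beside 5.27% of all genes, and of 8 markers of cartilage and mesenchyme 4 were lower, beside 6.19%. None of the genes on these 3 lists passed after adjustment. Neuron markers showed 0 of 8 at an unadjusted p under 0.05, beside 11.5% of all genes, with a median of -0.04. On the fetal liver list, Afp and Alb separated embryos of both genotypes into liver-rich and liver-poor. The exception on the list, picked out after its values were seen, was Ttr, the gene of the thyroid hormone carrier transthyretin, at 14.4, 15.3 and 15.1 FPKM in KO embryos 1 to 3 and 46.4, 32.3, 53.1 and 35.3 FPKM in WT embryos 1 to 4. Its KO embryos all lay below its WT embryos, with a log2 difference of -1.40 ± 0.17 (SE) and a limma adjusted p of 0.0891. Among the 4 liver-rich embryos alone, 8 of 13 liver markers tested were lower in KO at an unadjusted p under 0.05, beside 6.18% of all genes, and 1, Ttr, passed after adjustment. With Afp as a covariate the log2 differences were -0.40 for Meg3, -0.28 for Igf2, -0.26 for Rian, -0.23 for Mirg and -0.31 for Cdkn1c.

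**Figure D5:**
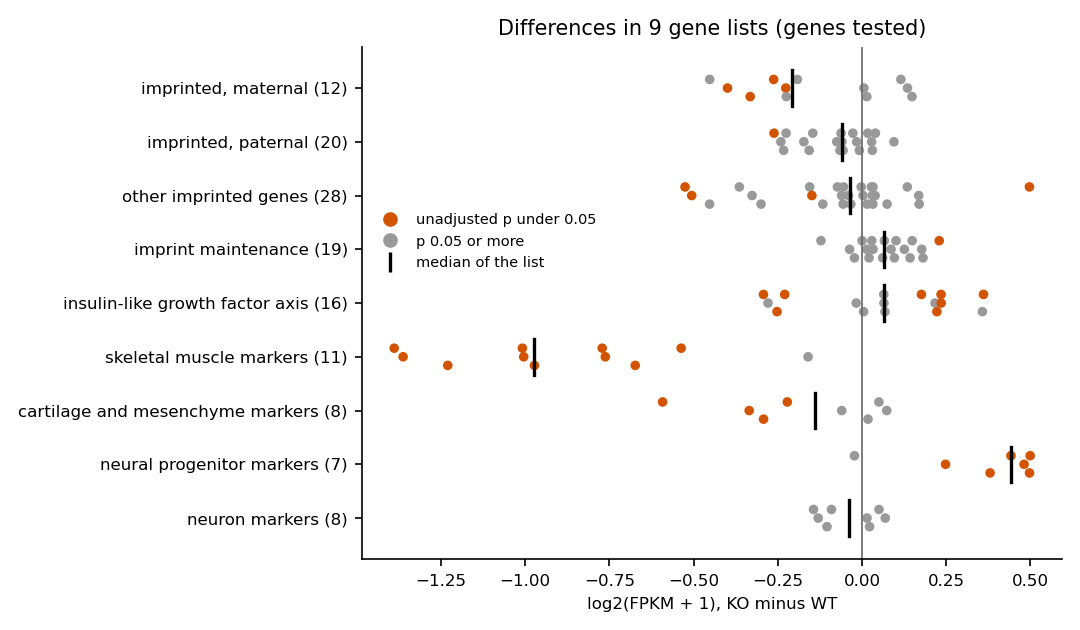
Difference in log2(FPKM + 1), KO minus WT (horizontal axis), for the tested genes of 9 lists, with the number tested in parentheses, coloured points for unadjusted p under 0.05 and a bar at the median of each list. The maternally expressed members have a median of -0.21, skeletal muscle markers lie far to the left with a median of -0.97, and 6 of 7 neural progenitor markers lie to the right.

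Genes next to the imprinted domains gave a mixed picture. Within 500 kb of a member, 152 genes on neither imprinted list were tested, and 16 (10.53%) had an unadjusted p under 0.05, near the 11.5% of all genes, with a median log2 difference of 0.01. Around Igf2 and H19, 6 of 13 such genes had an unadjusted p under 0.05, all lower in KO (beside 6.19% of all genes), with a median of -0.23. They include the muscle gene Tnnt3, at 4.28, 3.33 and 3.16 FPKM in KO embryos 1 to 3 and 5.44, 5.80, 8.57 and 5.71 FPKM in WT embryos 1 to 4. Around the Kcnq1 domain, which lies nearby on chromosome 7 and shares some of these neighbours, 6 of 15 did, 5 of them lower. Whether the domains differ in this respect was not tested.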

How the data were processed

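The 7 libraries were made from total RNA of whole E11.5 embryos with a TruSeq RNA v2 kit, which does not mark strand. The authors deposited FPKM per gene and embryo, with a mean normalized count per gene (a normalized signal over all embryos). The submitters' processing notes name Salmon, DESeq2, MultiQC and GRCm38, and how FPKM was computed is not given in the sources used here. Median-ratio size factors of the FPKM were 1 in every embryo, so the values were already on that scale as deposited. The fold change and p-value columns of the authors' own comparison were not used, and 0 FPKM columns were left unassigned. The 16095 of 25461 genes whose average over the embryos reached 1 FPKM were tested with limma 3.58.1 (R 4.3.3) on log2(FPKM + 1), with a variance trend and Benjamini-Hochberg adjustment over all of them at 0.05. A log2 difference on this scale understates the change of low genes. The test was checked on simulated data, the outcome of which is not reported here. Relative depth was read from the steps of low FPKM values, of which 65.2% to 83.1% per embryo came out whole within 0.05 at the best scale, and is approximate. Positions are from GENCODE M21 (GRCm38), and promoter and microRNA sequences from RefSeq (GRCm38.p6). Full values are printed for members whose KO embryos all lie outside the WT range, for both genes of 12 partner pairs, for the most and least abundant members tested and, of other lists, for up to 3 genes with the smallest p. Other genes were named after their values were seen. The members, lists and tests were chosen with earlier results of these data known. The labels do not say which embryos share a litter, so the number in the embryo labels was tried as a block only as an alternative. Embryos are separate animals. Alternatives changed the pseudocount (0.1), the filter, the scaling, covariates, the variance model and the embryos included.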

Additional observations from a re-analysis of the deposited data

Results flagged for a closer look

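Among 50 sets of WT embryos examined, 4 had one embryo far from the other 3, where chance gives about 2.5, by the gap to the nearest embryo as a share of the whole range. Snrpn was highest in WT embryo 3, at 64.5 FPKM against 52.4 to 54.4 FPKM in the others, with a share of 0.831. Zrsr1, which encodes a splicing factor, was also highest in WT embryo 3, at 10.25 FPKM against 7.13 to 7.59 FPKM, with a share of 0.855. The log2 ratio of H19 to Igf2 was lowest in WT embryo 4, at 1.22 against 1.35 to 1.37, with a share of 0.887. The log2 ratio of Kcnq1ot1 to Cdkn1c was lowest in WT embryo 3, at -8.62 against -8.30 to -8.25, with a share of 0.866. WT embryo 3 was the male WT embryo and held the most skeletal muscle transcripts, and the part of either in these values was not tested.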

How the results depend on the processing

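No imprinted gene passed an adjusted p of 0.05 under any of the 19 alternatives, and the 5 genes Meg3, Igf2, Rian, Mirg and Cdkn1c were lower in KO under each. They kept an unadjusted p under 0.05 in every alternative except that Cdkn1c lost it with the replicate block. That block, the number in the embryo labels, in effect drops WT embryo 3, the only one with its number. It gave 7 genes with adjusted p under 0.05 over all genes and a median of -0.04 over the imprinted genes (5 with unadjusted p under 0.05 beside 8.69% of all genes, 4 of them lower beside 4.65%). The one that was higher in KO was Ube3a, with a log2 difference of 0.17. Ube3a was not called when WT embryo 3 was left out without the block. Over all genes, 10 passed with Afp as a covariate, 17 without the 3 liver-poor embryos and 7 to 12 when 1 embryo was left out. Imprinted genes with unadjusted p under 0.05 numbered 11 (10 lower) without the liver-poor embryos and 5 to 10 (5 to 9 lower) with 1 embryo left out, where 7.8% to 16.4% of all genes were called and 4.24% to 8.55% lower. Members with groups apart numbered 16 without the liver-poor embryos (46.5% of all genes) and 5 to 11 with 1 left out, beside 14.4% to 28.4%. With quality weights the maternal median was -0.12 and the Ube3a difference 0.25 (0.12 without weights). Of the 17 members at least 0.1 from 0, the sign turned in 1, Ube3a (leave-one-out -0.036 to 0.22), and of the 16 nearer to 0 in 13. The Mest/Copg2 ratio turned to 0.043 without the liver-poor embryos (leave-one-out -0.29 to 0.035), and the Snrpn/Ube3a ratio ranged over -0.29 to 0.13. With 1 embryo left out, correlations ranged over -0.14 to 0.45 for Airn/Igf2r, -0.43 to 0.43 for Mest/Copg2, -0.65 to 0.24 for Snrpn/Ube3a and -0.099 to 0.66 for Peg10/Sgce, which was -0.083 with quantile normalization. The cause of these shifts was not tested. Median-ratio size factors of the FPKM were 1 in every embryo, so that scaling left each value as it was. With 3 and 4 embryos, members below 1 FPKM and differences within the intervals given could not be resolved.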

Other observations

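Heart markers, a tissue outside the comparisons above, were higher in KO by sign for all 7 genes tested, beside 8554 of all 16095 genes. Of the 7, 3 had an unadjusted p under 0.05 in limma (beside 5.27% of all genes) and none passed after adjustment. Their summed level was 414, 459.6 and 537 FPKM in KO embryos 1 to 3 and 376, 355, 385 and 437 FPKM in WT embryos 1 to 4. KO embryo 3 was the highest and WT embryo 2 the lowest. Across all 33 tested imprinted genes, the median Pearson r between 2 members over the 7 embryos was 0.14, beside 0.00 over all genes tested, a description of embryos that share genotype, sex and liver content.

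Without the filter on low values, the 4 least abundant members had log2 differences of -0.06 for Dio3, 0.02 for Kcnq1ot1, -0.10 for Slc22a18 and -0.02 for Ascl2.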
